A study of Mus musculus with 232 samples.

Results

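The mRNA levels of the SR proteins and the hnRNPs were examined across single mouse embryonic stem cells (ESCs) that had or lacked miRNAs. All protein-coding genes whose symbol begins with Srsf followed by a digit, or with Hnrnp, were taken, which gave 31 genes (11 SR protein genes and 20 hnRNP genes) among the 42493 genes in the files. The symbol alone decided which genes were members, although earlier results of these data were known when the families were chosen. The cells fell into 4 conditions: 16 wild-type (WT) cells of the line V6.5, the parental line, 60 mock-transfected Dgcr8-/- cells, 58 Dgcr8-/- cells transfected with a miR-294 mimic and 48 Dgcr8-/- cells transfected with a let-7 mimic. Dgcr8 encodes the RNA-binding partner of Drosha in primary miRNA processing, so cells without it make almost no miRNAs, and a mimic returns a miRNA of choice. All Dgcr8-/- cells carry the knockout, including the mock-transfected controls, which received the same treatment without a mimic. All cells were grown with serum, LIF and inhibitors of MEK and GSK3. They were captured on microfluidic circuits 24 h after transfection, but the methods do not state whether the WT cells were mock-transfected.

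SR proteins and hnRNPs are the large families of nuclear RNA-binding proteins that steer the choice of splice sites. An SR protein binds exonic enhancers through an RNA recognition motif and recruits the spliceosome through a tail rich in arginine and serine. Many hnRNPs coat the nascent transcript and act against SR proteins at the same exons, although several also enhance splicing, export mRNA or control its decay. Both families regulate their own mRNAs through alternative exons that lead to decay, and both are abundant in dividing cells such as ESCs.

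The mature sequences of the mimics' miRNAs are shown because a miRNA finds its targets through its seed, bases 2 to 8, which is given in capitals. The labels and the methods name the let-7 mimic differently (let-7, let-7i, let-7b or let-7c), so the mature sequences of these 3 family members are given. The sequences are those of RefSeq on the build GRCm38.p6.
mmu-miR-294-3p: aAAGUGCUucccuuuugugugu
mmu-let-7b-5p: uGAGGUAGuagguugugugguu
mmu-let-7c-5p: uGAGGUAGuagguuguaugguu
mmu-let-7i-5p: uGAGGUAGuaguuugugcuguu
The 3 let-7 members share the seed GAGGUAG, so the name of the mimic does not alter the match that is searched for, whereas the seed of miR-294 is AAGUGCU.

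Perfect matches to the seeds were searched for on the sense strand of the annotated 3′ UTR of each gene. AGCACTT, the match to miR-294, stood in the 3′ UTR of 5 of the 30 members searched (16.7%) and of 1661 of 10295 protein-coding genes (16.1%). CTACCTC, the match to let-7, stood in 1 of the 30 members (3.33%), against 9.39% of the protein-coding genes. The median length of the searched 3′ UTR was 1033 bases for the members and 988 bases for all. The members that hold a miR-294 match were Srsf10, Hnrnph3, Hnrnpr, Hnrnpu and Hnrnpul2, and Hnrnpr, whose annotated 3′ UTR of 19419 bases is by far the longest of these, also held the let-7 match. The sites of Hnrnpul2, Hnrnpu and Hnrnph3 are shown as examples, with the matching bases in capitals. These genes had log2 ratios below 0 after miR-294 (-0.11, -0.32 and -0.68). Srsf10 and Hnrnpr, whose sites are not printed, had ratios above 0 (0.05 and 0.18), so the examples do not stand for all members with a match.
Hnrnpul2: gcacagaaagcAGCACTTagagctgccta
Hnrnpu: atcagtggtagAGCACTTattatcagcac
Hnrnph3: aaaaccctcatAGCACTTgactaagatac
The capitals lie at chr19:8831820-8831826 on the plus strand for Hnrnpul2, at chr1:178327030-178327036 on the minus strand for Hnrnpu and at chr10:63015084-63015090 on the minus strand for Hnrnph3, all in the 3′ UTR on GRCm38. In Hnrnpul2 and Hnrnpu, but not in Hnrnph3, an A follows the match. An A also follows the match of Srsf10 and a match of Hnrnpr. A match in these letters is a description of the sequence, and binding was not measured.

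The files held 232 sequencing runs of the 182 cells, and a cell had between 513521 and 3979274 expected counts and between 6119 and 10877 genes. The counts of 4 pairs of cells (3 of let-7 and 1 of miR-294) agreed as closely as the runs of 1 cell did, with r of 0.985 or more on the log2 scale against at most 0.715 for any other pair. Each pair was averaged and counted as 1, which left 57 miR-294-transfected and 45 let-7-transfected cells, or 178 in all. The 2 runs of another 2 cells (1 WT and 1 let-7-transfected) did not match each other, with r of 0.488 and 0.500. Of the 8 fibroblast markers, between 4 and 6 had no count in any cell of a condition, and their summed level averaged between 0.336 and 14.05 normalised counts, with 349.7 in the highest cell, which was let-7-transfected. The summed level of 10 pluripotency markers averaged 7406 in WT, 8572 in Dgcr8-/-, 9509 in miR-294-transfected and 5329 in let-7-transfected cells, and that of 9 markers of early differentiation between 12.9 and 34.7. Dgcr8 was counted in 54 of the 60 mock-transfected Dgcr8-/- cells, at 51.5 ± 117 normalised counts (SD over cells) against 118 ± 165 in WT, but a count over the whole gene does not show whether its deleted exon is present.

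Each condition came from a single capture circuit, and no replicate cultures were named. The cells are therefore not replicates of a condition, no test between conditions was possible, and circuit and condition cannot be told apart. Levels are the expected counts divided by DESeq size factors (normalised counts), with the mean and the SD over cells, and differences as the log2 ratio of 2 means. A ratio of 1.5-fold or more, in either direction, was set as a line for description only. In each comparison, the share of all genes beyond the same line is given as the background. As the 2 mimics and WT were all compared with the same mock-transfected cells, the 3 comparisons are not independent of each other. Lower levels per cell and a different mix of cell states cannot be told apart from a mean.

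Members differed from each other in level far more than they differed between conditions. The levels of genes were compared per length, as the FPKM deposited by the authors, averaged over the 4 conditions. Among the SR proteins, Srsf3, which also acts as an adaptor for mRNA export, was the highest at 500.1 FPKM, followed by Srsf2, which stays in the nucleus, at 446 FPKM and Srsf7, another export adaptor, at 196 FPKM. Among the hnRNPs, Hnrnpa1, a general repressor of splice sites, had 728 FPKM, Hnrnpk, which binds C-rich stretches, had 686 FPKM, and Hnrnpf, which binds runs of G, had 661 FPKM. At the other end stood Srsf4 at 22.5 FPKM, Hnrnpll at 9.51 FPKM, Hnrnpul1 at 6.77 FPKM and Hnrnpul2 at 6.60 FPKM. The neighbours Hnrnpa1, Hnrnpk and Hnrnpf lay closer to each other than the spread over cells, since in Dgcr8-/- cells alone the mean ± SD was 678 ± 292, 695 ± 355 and 611 ± 298 FPKM (n = 60 cells).

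**Figure D1:**
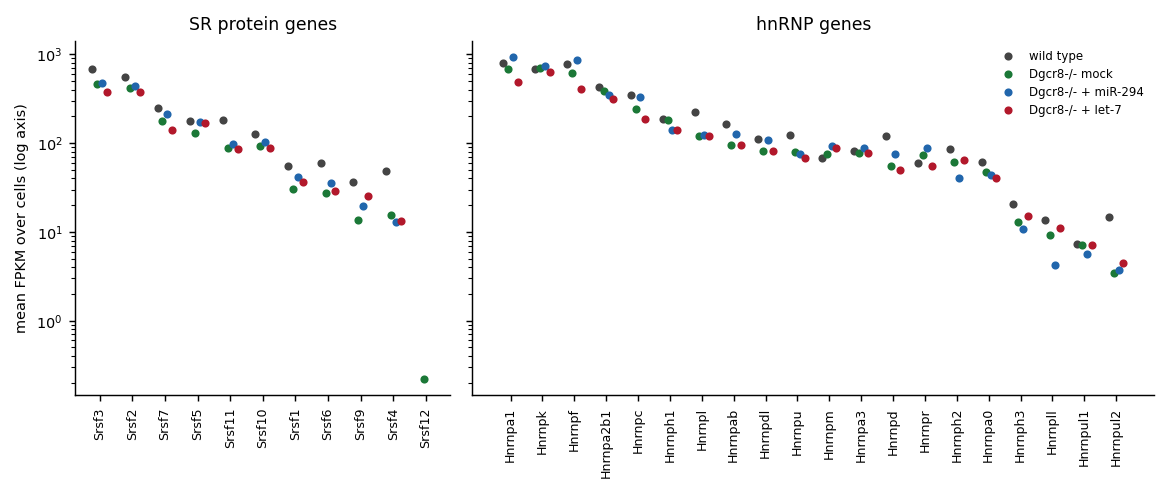
Mean FPKM over cells (log axis) of each SR protein gene (left) and hnRNP gene (right), ordered by level, with a point for each of the 4 conditions. The order is led by Srsf3 and Srsf2 and by Hnrnpa1, Hnrnpk and Hnrnpf, and Srsf12 has a point in Dgcr8-/- cells only.

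Srsf12 was hardly counted in these cells. It was counted in 1 of 60 Dgcr8-/- cells, and in 0 of 16 WT, 0 of 57 miR-294-transfected and 0 of 45 let-7-transfected cells, which allows a share of cells with a count of up to 18.8%, 5.26% and 6.67%, respectively. Cells that express the gene without yielding a read are not limited by these values. Its mean count was 0.242, below the minimum of 5, so the other 30 members are the basis of the comparisons. Of these, 24 had a mean count of at least 100 and are called abundant here.

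Taken as a family, the SR proteins were highest in WT cells. The 11 genes together held 0.385 ± 0.0564% (SD, n = 16 cells) of a WT cell's counts, from 0.298 to 0.502%. They held 0.256 ± 0.0829% (n = 60) in Dgcr8-/- cells, 0.286 ± 0.0893% (n = 57) after miR-294 and 0.236 ± 0.0732% (n = 45) after let-7. On the scale of normalised counts, the summed level was 24.3% lower in Dgcr8-/- than in WT cells, and 15 of the 16 WT cells lay above the Dgcr8-/- median. The ranges of the conditions nevertheless overlapped, since the highest Dgcr8-/- cell reached 0.583%. Between either mimic and the mock-transfected cells, the summed SR protein level differed by a few percent in normalised counts (log2 ratios of -0.03 after miR-294 and -0.05 after let-7), less than the SD over cells, and the sign of both changed in some alternatives.

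The 20 hnRNP genes made up a larger share of the counts, and here the let-7-transfected cells were the lowest. They held 0.948 ± 0.129% in WT, 0.759 ± 0.201% in Dgcr8-/-, 0.889 ± 0.137% after miR-294 and 0.615 ± 0.148% after let-7. In normalised counts, the summed level after let-7 was 14.3% lower than in Dgcr8-/- cells, with 13 of 45 cells above the Dgcr8-/- median, and the direction was the same in each of the 13 alternatives run. The summed level was 8.71% lower in Dgcr8-/- than in WT cells, again in the same direction in all 12 alternatives. After miR-294 it was 3.47% higher than in Dgcr8-/- cells, with 35 of 57 cells above the Dgcr8-/- median, and the ratio turned slightly below 0 in some alternatives. The SD over cells exceeded each of these differences.

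**Figure D2:**
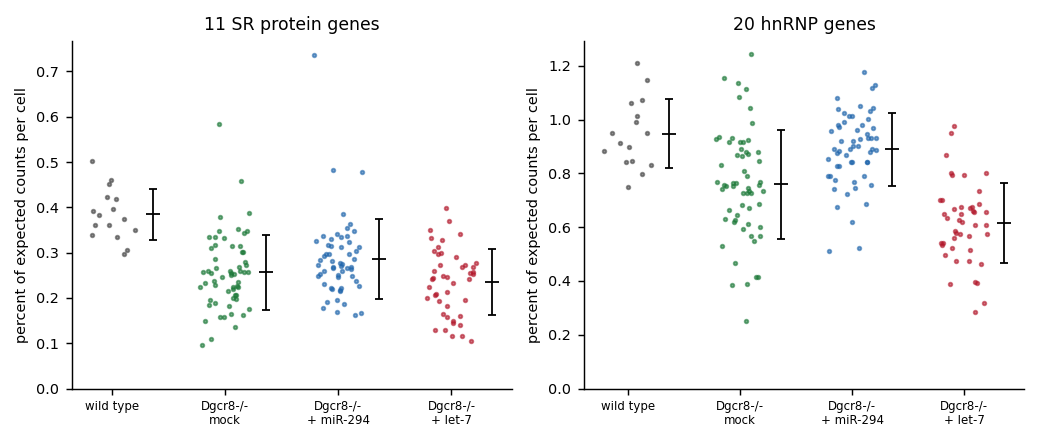
Percent of a cell's expected counts held by the 11 SR protein genes (left) and the 20 hnRNP genes (right), with a point per cell and the mean ± SD over cells beside the points. The 16 WT cells lie between 0.298 and 0.502% for SR proteins, around the upper part of the Dgcr8-/- cells, and the let-7-transfected cells have the lowest mean for hnRNPs.

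Mock-transfected Dgcr8-/- cells were compared with WT cells, from which they differ in genotype, in circuit and possibly in the mock treatment. Of the 30 members, 25 were lower in Dgcr8-/- cells, among them all 10 SR proteins and 15 of the 20 hnRNPs, whereas 36.4% of all genes were lower. At least 1.5-fold lower were 8 members (Srsf4, Srsf6, Srsf9, Srsf11, Hnrnpab, Hnrnpd, Hnrnpl and Hnrnpul2), and 0 were at least 1.5-fold higher. Among all 11186 genes that passed the minimum mean count of 5, 17.4% were lower and 42.8% were higher by this line. Among the abundant genes the shares were 12.6% and 29.6%, and among the 24 abundant members 5 were lower and 0 higher. The median log2 ratio was -0.27 for the 30 members and 0.38 for all genes, that is, the members lay 0.64 below the median gene on the log2 scale. Among abundant genes the members lay 0.36 below it (-0.20 against 0.16). Within the cells that were sequenced in 1 run, the median of the members was -0.32, and no value could be given for cells with 2 runs, since only 2 WT cells had them. WT was the condition with the highest level for 21 of the 30 members, including 9 of the 10 SR proteins.

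Srsf11, an SR-related splicing factor, had the clearest separation (chr3:158010473-158036639, minus strand). Its normalised count in WT cells was 190 at the lowest, 538 at the median and 1238 at the highest, with a mean of 580 ± 315 (SD, n = 16). In Dgcr8-/- cells it was 3.12, 282 and 733, with a mean of 287 ± 177 (n = 60), which is 2.02-fold lower, a log2 ratio of -1.01. Of the 60 Dgcr8-/- cells, 7 (11.7%) lay above the WT median. The means after miR-294 and let-7 were 297 ± 169 and 307 ± 259, close to that of Dgcr8-/- cells.

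Srsf9, a short SR protein, was low throughout but separated the conditions in a similar way (chr5:115327177-115333080, plus strand). It ran from 5.02 through a median of 45.9 to 134 in WT cells, and from 0 through 12.98 to 144 in Dgcr8-/- cells. The mean in Dgcr8-/- cells, 20.3 ± 23.5, was 2.45-fold lower than the WT mean of 49.7 ± 35.01, and 7 of 60 Dgcr8-/- cells were above the WT median. WT and Dgcr8-/- cells overlapped, with most Dgcr8-/- cells in the lower part of the WT range.

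Srsf4 and Srsf6, the SR proteins with the long arginine and serine tails, were also lower in Dgcr8-/- than in WT cells. Their means after miR-294 (36.4 and 138) and after let-7 (44.2 and 114) lay below the WT means as well. Srsf4 (chr4:131873617-131901706, plus strand) had a median of 77.3 in WT cells, from 0 to 645, and of 3.09 in Dgcr8-/- cells, from 0 to 405, with means of 138 ± 179 and 50.9 ± 88.9, which is 2.72-fold lower. When every cell was thinned to 500000 counts, Srsf4 was still counted in 68.8% of WT and 51.7% of Dgcr8-/- cells. Of the stretches of 31 bases in its transcripts, 40.96% also occur in transcripts of Gm12992, a gene whose reads cannot be fully told apart from those of Srsf4. Srsf6 (chr2:162931528-162937121, plus strand) had a median of 188 in WT cells, from 8.94 to 555, and of 77.6 in Dgcr8-/- cells, from 0 to 496, a ratio of means of 1.61-fold lower. None of its stretches of 31 bases was shared with another gene. Without 1 of the cells, the log2 ratio of Srsf6 varied from -0.77 to -0.49 and was beyond the line in 73 of 76 cases.

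Of the hnRNPs, Hnrnpd, also known as AUF1, which binds AU-rich elements and promotes mRNA decay, was 2.00-fold lower in Dgcr8-/- cells (chr5:99955935-99978938, minus strand). Its level had a median of 195 in WT cells, from 17.5 to 645, and of 103 in Dgcr8-/- cells, from 0 to 448, with means of 241 ± 188 and 121 ± 95.6. Hnrnpl, which binds CA repeats, had a median of 156 in WT, from 27.1 to 624, and of 110 in Dgcr8-/- cells, from 25.02 to 499, and the means of 223 ± 169 and 135 ± 98.7 gave a ratio of 1.65-fold lower. Hnrnpab, a relative of Hnrnpd, had a median of 450 in WT, from 9.04 to 987, and of 230 in Dgcr8-/- cells, from 43.6 to 827, and its means of 450 ± 245 and 294 ± 188 gave 1.53-fold lower. For these 3 genes the cells of both conditions overlapped over most of their range. For Hnrnpl and Hnrnpab, as for Srsf6, leaving out a single cell could bring the log2 ratio inside the line, to -0.53 and -0.49. Hnrnpab shares 28.1% of its stretches of 31 bases with other genes, chiefly its neighbour Phykpl.

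The numerically largest ratio, that of Hnrnpul2, rested on a few WT cells (chr19:8820010-8834143, plus strand). This relative of the scaffold protein Hnrnpu had a mean of 121 ± 251 in WT against 29.3 ± 57.4 in Dgcr8-/- cells, which is 4.15-fold lower. The median in WT was however 18.3, the upper quartile 50.4 and the highest cell 791, whereas Dgcr8-/- cells had a median of 7.39 and a highest value of 334. Of the Dgcr8-/- cells, 21 of 60 lay above the WT median. Without 1 of the cells, the log2 ratio varied from -2.33 to -1.39.

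The members with the highest FPKM stayed within 1.5-fold in the same comparison. Srsf3, with means of 1486 ± 462 in WT and 1170 ± 565 in Dgcr8-/- cells, had a log2 ratio of -0.35, and Srsf7 and Srsf2 had -0.31 and -0.14. The ratios of Srsf3 and Srsf7 were further below 0 than the members' median of -0.27. Hnrnpk was a little higher in Dgcr8-/- cells, at 2192 ± 975 against 1962 ± 715, a log2 ratio of 0.16. This was level with the median of abundant genes (0.16) and below that of all genes (0.38). Hnrnpa1 and Hnrnpf had log2 ratios of -0.10 and -0.17. In all 3 comparisons, the range over cells overlapped between the conditions for each of the 30 members.

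**Figure D3:**
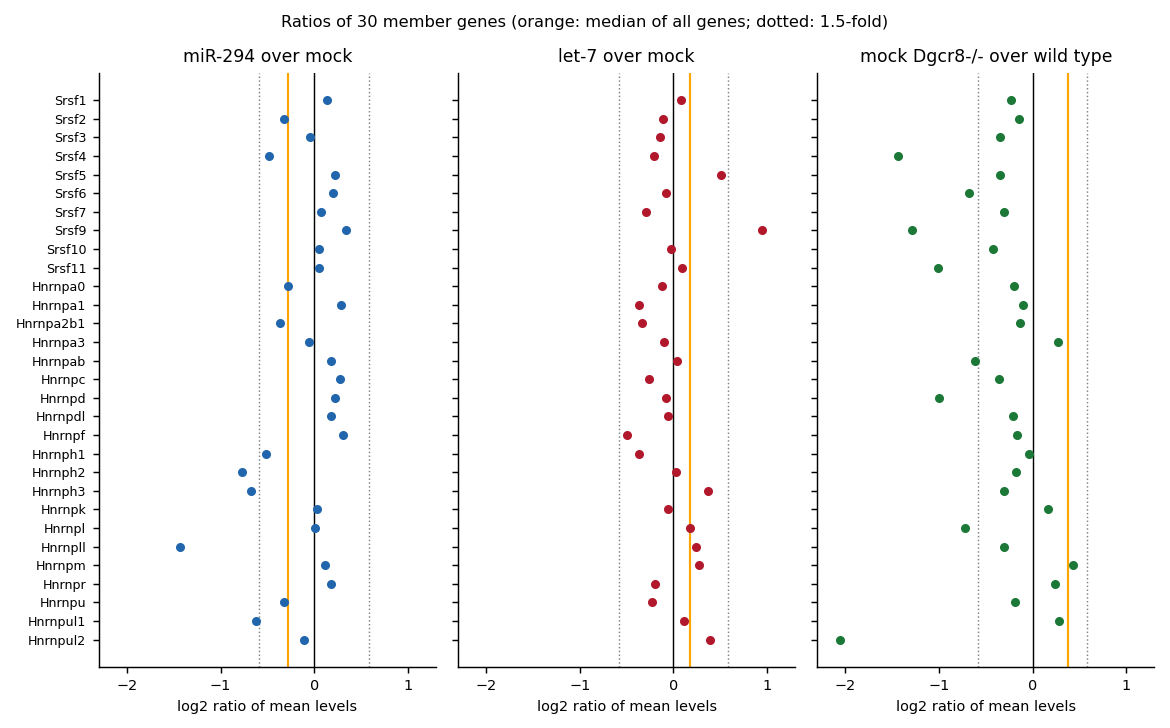
Log2 ratio of mean normalised counts for the 30 members past the filter, in miR-294-transfected over mock-transfected cells (left), let-7-transfected over mock-transfected cells (middle) and mock-transfected Dgcr8-/- over WT cells (right). The orange line is the median of all genes and the dotted lines are 1.5-fold, and on the right 25 points lie below 0 while the orange line lies at 0.38.

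The comparison of miR-294-transfected with mock-transfected cells asked what a member of the ESC-enriched miRNA family does on its own. At least 1.5-fold lower were 4 members, all hnRNPs (Hnrnph2, Hnrnph3, Hnrnpll and Hnrnpul1), and 0 were at least 1.5-fold higher. Of all genes, 35.1% were lower and 11.5% were higher by this line. Among abundant genes the shares were 22.5% and 5.06%, against 1 lower and 0 higher of the 24 abundant members. The median log2 ratio was 0.04 for the 30 members and -0.28 for all genes, so the members lay 0.32 above the median gene, or 0.23 above it among abundant genes. Within the cells with 1 run the members' median was 0.02, and within those with 2 runs it was -0.07.

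Hnrnpll, a paralogue of Hnrnpl known for its role in switching exons in lymphocytes, was the member with the lowest ratio after miR-294 (chr17:80029487-80062334, minus strand). Its normalised count in Dgcr8-/- cells was 0 at the lowest, 8.48 at the median and 282 at the highest, with a mean of 40.3 ± 68.1. After miR-294 the values were 0, 2.87 and 106, with a mean of 15.0 ± 23.7, which is 2.69-fold lower, a log2 ratio of -1.43. The upper quartile was 19.3 after miR-294 and 38.1 in Dgcr8-/- cells, and 21 of 57 transfected cells lay above the Dgcr8-/- median. Its annotated 3′ UTR held no match to the miR-294 seed in the transcript searched.

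Hnrnph2, which like Hnrnpf binds runs of G, had a mean of 124 ± 113 after miR-294 against 211 ± 253 in Dgcr8-/- cells, or 1.70-fold lower. Its medians were closer, at 97.6 (from 2.13 to 536) and 121 (from 0 to 1363), so that a few high Dgcr8-/- cells weighed in the mean. Its log2 ratio of -0.77 was beyond the line in 6 of 13 alternatives, and was -0.55 with TMM factors, -0.50 with total counts, -0.30 with pooled counts and -0.31 with medians over cells. Hnrnph3, the smaller relative that holds a seed match, had 15.3 ± 30.8 against 24.5 ± 54.5, and Hnrnpul1, linked to the response to DNA damage, had 21.97 ± 26.1 against 33.7 ± 28.5. Both genes had low counts, and leaving out single cells could bring either inside the line, to log2 ratios of -0.34 and -0.54. They were beyond it in 6 and 7 of the 13 alternatives. For Hnrnpul1, 14 of 57 transfected cells (24.6%) were above the Dgcr8-/- median. Hnrnph3, Hnrnpll and Hnrnpul1, like Srsf9, had a mean below 100 in each condition and were named after their values had been seen.

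The other members with a seed match had log2 ratios after miR-294 of -0.11 for Hnrnpul2, -0.32 for Hnrnpu, 0.05 for Srsf10 and 0.18 for Hnrnpr. The values of these genes lay on both sides of the median gene. Hnrnpu, the scaffold attachment factor that binds chromatin and RNA, had a mean of 665 ± 255 after miR-294 and of 832 ± 415 in Dgcr8-/- cells, with 16 of 57 transfected cells above the Dgcr8-/- median.

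The hnRNPs with the highest FPKM went in different directions after miR-294, all within 1.5-fold. Hnrnpf, Hnrnpa1 and Hnrnpc were higher, Hnrnpa2b1 and Hnrnph1 were lower, and Hnrnpk was almost unchanged, with a log2 ratio of 0.03. Hnrnpf had a median of 2108 (from 497 to 5734) after miR-294 against 1634 (from 58.7 to 4582) in Dgcr8-/- cells, with means of 2217 ± 882 and 1787 ± 894, a log2 ratio of 0.31. Hnrnpa1 had a median of 1989 (from 696 to 3514) against 1620 (from 95.4 to 3862), a log2 ratio of 0.28. Hnrnpc, which binds uridine tracts in nascent transcripts, had a mean of 1181 ± 297 against 975 ± 439, also a log2 ratio of 0.28, and 47 of 57 transfected cells lay above the Dgcr8-/- median. Hnrnpa2b1, the close relative of Hnrnpa1, went the other way, with 1189 ± 433 against 1529 ± 788, a log2 ratio of -0.36. So did Hnrnph1, with 256 ± 162 against 364 ± 233, a log2 ratio of -0.51, and 16 of 57 transfected cells above the Dgcr8-/- median. Hnrnpf and Hnrnpa1 share 66.2% and 29.9% of their stretches of 31 bases with other genes, chiefly processed copies, so their counts depend on how such reads were divided.

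The comparison of let-7-transfected with mock-transfected cells asked the same of a miRNA of differentiated cells. Only Srsf9 was at least 1.5-fold higher and 0 members were at least 1.5-fold lower, where 30.9% of all genes were higher and 17.1% lower. Among abundant genes the shares were 14.7% and 14.2%, against 0 and 0 of the 24 abundant members. The median log2 ratio of the 30 members was -0.07 and that of all genes 0.18, so the members lay 0.25 below the median gene. Among abundant genes the members lay 0.09 below it. Within cells with 1 run the members' median was 0.02, and within the 7 let-7-transfected cells with 2 runs it was -0.22 against Dgcr8-/- cells with 2 runs.

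Srsf9 was 1.92-fold higher after let-7, a log2 ratio of 0.94. Its normalised count ran from 0 through a median of 21.6 to 359 after let-7, against 0, 12.98 and 144 in Dgcr8-/- cells, with means of 38.98 ± 57.3 and 20.3 ± 23.5. Of the 45 let-7-transfected cells, 33 (73.3%) were above the Dgcr8-/- median. Without 1 of the cells, the log2 ratio varied from 0.64 to 1.10, and it was beyond the line in each of the 13 alternatives run. The mean after let-7 was thus nearer to the WT mean of 49.7 than to that of the mock-transfected cells. By medians this did not hold, since 21.6 after let-7 was nearer to 12.98 in Dgcr8-/- cells than to 45.9 in WT cells.

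Hnrnpf, Hnrnpa1 and Hnrnpc, which were higher after miR-294, were lower after let-7. Hnrnpf had a median of 1156 (from 46.4 to 2929) and a mean of 1269 ± 667, a log2 ratio of -0.49, with 13 of 45 cells above the Dgcr8-/- median. Hnrnpa1 had a median of 1199 (from 198 to 2591) and a mean of 1280 ± 552, a log2 ratio of -0.37, with 15 of 45 cells above it. Hnrnpc had a mean of 814 ± 424, a log2 ratio of -0.26, with 10 of 45 cells above it. Other abundant hnRNPs did not show opposite directions. Hnrnpa2b1, Hnrnph1 and Hnrnpu were lower after miR-294 and also after let-7, with log2 ratios after let-7 of -0.34, -0.37 and -0.23. Both comparisons share the same control cells, so these values are set side by side without a test. The direction for Hnrnpf and Hnrnpa1 was the same in the 13 alternatives run in both comparisons. Srsf5, an SR protein that responds to growth signals, was higher after let-7, at 418 ± 288 against 294 ± 190, a log2 ratio of 0.51.

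**Figure D4:**
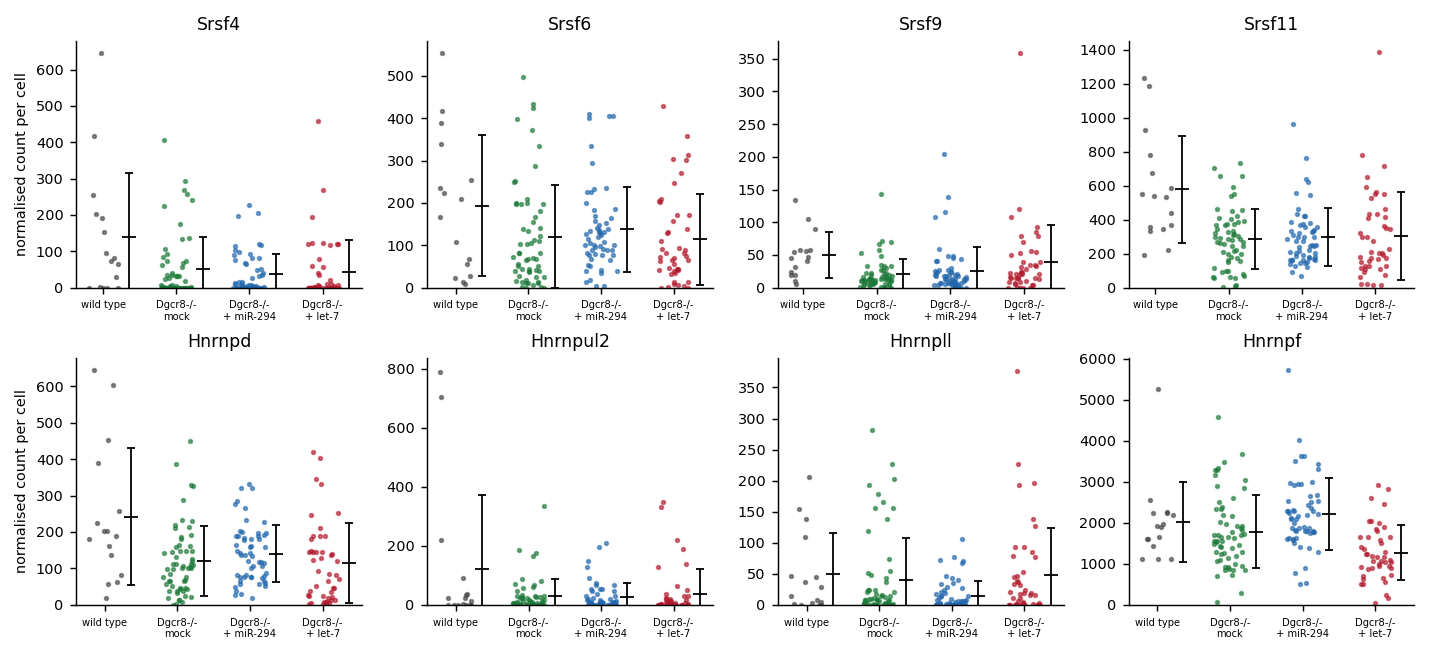
Normalised count per cell of Srsf4, Srsf6, Srsf9, Srsf11, Hnrnpd, Hnrnpul2, Hnrnpll and Hnrnpf in WT, mock-transfected Dgcr8-/-, miR-294-transfected and let-7-transfected cells, with the mean ± SD over cells beside the points. The WT points of Srsf11 and Srsf9 sit above most Dgcr8-/- points, whereas the WT mean of Hnrnpul2 rests on a few cells up to 791.

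The make-up of the hnRNP family also differed between the mimics. Hnrnpf held 18.5% and Hnrnpa1 17.1% of a cell's hnRNP counts after miR-294, against 15.9% and 14.3% in Dgcr8-/- cells and 13.3% and 13.2% after let-7. Hnrnpk held the largest share in the last condition, at 21.2%, against 18.7% in Dgcr8-/- and 15.8% in WT cells. Among SR proteins, Srsf3 held between 28.9 and 29.9% in each of the 4 conditions. The share of Srsf11 was 11.5% in WT and between 7.96 and 8.22% in the other 3.

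The variation over cells was lower for members than for abundant genes in general. The median coefficient of variation of the 24 abundant members was 54.4% in WT, 64.2% in Dgcr8-/-, 58.7% after miR-294 and 73.7% after let-7. For all abundant genes it was 92.2%, 96.8%, 83.6% and 102%, respectively. The lowest value of a member was that of Hnrnpc after miR-294, at 25.2%, and the highest that of Hnrnph2 after let-7, at 127%. Variation falls as counts rise, and the genes were not matched by level, so the part of abundance in this difference was not tested.

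**Figure D5:**
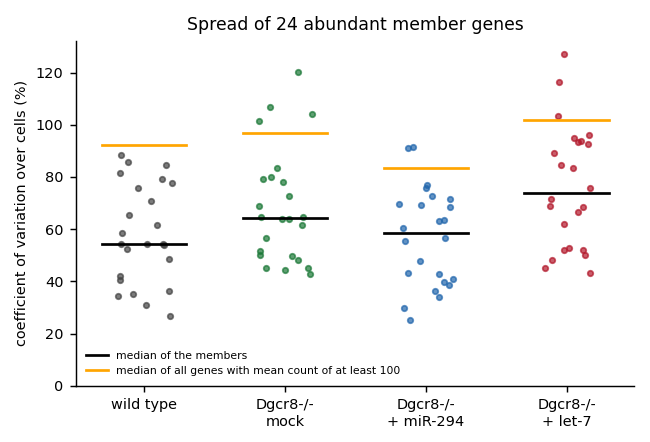
Coefficient of variation over cells of the 24 abundant members (points) in each condition, with their median (black) and the median of all abundant genes (orange). The medians of the members are 54.4, 64.2, 58.7 and 73.7%, each below the orange line.

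Pairs of members were weakly correlated over cells. The median Spearman correlation over the 276 pairs of abundant members was -0.01 in WT (16 cells), 0.10 in Dgcr8-/- (60 cells), 0.06 after miR-294 (57 cells) and 0.07 after let-7 (45 cells), against 0.01 for all pairs of abundant genes in each condition. Values this low, from cells that share a circuit and differ in depth, are given as a description. The highest pair in Dgcr8-/- cells was Hnrnpa1 with Hnrnpk, at 0.45, and after miR-294 Hnrnpa2b1 with Hnrnph1, at 0.50.

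Other genes of splicing were counted from lists of known factors, and their counts are to be read against the shares of all genes beyond the same line, which were 11.5% higher and 35.1% lower after miR-294, 30.9% and 17.1% after let-7, and 42.8% and 17.4% in Dgcr8-/- over WT cells. Of the 32 spliceosome core genes past the filter, 4 were at least 1.5-fold higher and 0 lower after miR-294, 0 higher and 6 lower after let-7, and 4 higher and 7 lower in Dgcr8-/- than in WT cells, with median log2 ratios of 0.25, -0.23 and -0.13. Several of these counts, such as 4 of 32 higher after miR-294 and 6 of 32 lower after let-7, are close to those shares. For the 18 other RNA-binding proteins of the hnRNP type, these counts were 1 and 0, 4 and 3, and 4 and 3, with medians of -0.02, 0.07 and -0.05. For the 16 SR-related proteins and SR protein regulators, they were 1 and 2, 2 and 2, and 4 and 1, with medians of -0.07, 0.10 and -0.05. For the 8 splicing factors tied to cell state, they were 0 and 3, 3 and 0, and 2 and 1, with medians of -0.35, 0.04 and 0.36.

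Among the genes of these lists with a mean of at least 100 in a compared condition, those at least 2-fold apart included both Mbnl genes, splicing regulators that favour the patterns of differentiated cells. Mbnl1 averaged 428 ± 372 after let-7 and 210.2 ± 239 in Dgcr8-/- cells, a log2 ratio of 1.02. Mbnl2 averaged 48.2 ± 61.4 after miR-294, 112 ± 123 in Dgcr8-/- and 55.8 ± 101 in WT cells. Rnps1, a component of the exon junction complex, averaged 58.9 ± 79.5 after let-7 against 154 ± 160, and Ptbp3, a repressor of exons, 92.9 ± 103 against 210 ± 455. Snrpb, a core protein of the spliceosomal particles, averaged 406 ± 297 in Dgcr8-/- and 196 ± 116 in WT cells. It was not typical of the spliceosome core genes, whose median log2 ratio in this comparison was -0.13, with 4 genes higher and 7 lower by the 1.5-fold line.

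Proliferation was followed with a list of 6 marker genes (Mki67, Top2a, Ccnb1, Cdk1, Mcm5 and Pcna). Their summed level averaged 4232 ± 1359 in WT, 3390 ± 1278 after miR-294, 2858 ± 1684 in Dgcr8-/- and 2341 ± 1825 after let-7. This is the order of the means of the hnRNP and SR protein shares of counts, but not of the summed SR protein level in normalised counts, which averaged 5095 in WT, 3859 in Dgcr8-/-, 3768 after miR-294 and 3728 after let-7. Nor did each of the 6 genes follow it. Mki67 was highest after let-7, at 441, and lowest after miR-294, at 135, and Cdk1 averaged 314 in WT, 330 in Dgcr8-/- and 375 after miR-294. The ranges of the summed level overlapped between the 4 conditions, and the part of the cell cycle in the levels of the members was not tested.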

How the data were processed

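Single-cell libraries were made by the authors on the C1 system and with a transposon kit, without molecular identifiers. The authors had removed cells with low diversity and cells in which the targets of the mimic were not reduced. Reads were assigned by the authors to Gencode M4 genes with RSEM 1.2.19, and the deposited expected counts are estimated reads per gene, not normalised, while the deposited FPKM values are scaled for length and depth. M4 was not used here, and symbols, coordinates and 3′ UTRs come from Gencode M21 (GRCm38), which named 41674 of the 42493 gene identifiers.

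Here, the expected counts of all runs of each cell were added, rounded and divided by DESeq size factors, which were estimated on 862 genes present in all cells, and the results were averaged over cells. Genes that averaged 5 counts or more (11186) were kept, and those of at least 100 (3238) were called abundant. Near-identical cells were averaged, which had been planned as an alternative and became the main setting after the pairs had been seen. The study treated cells as repeats in its tests of expression. Here a condition was taken as 1 sample, and no test was run. The members and lists were chosen with earlier results of these data known. Named were members at least 1.5-fold apart with a mean of at least 100 in a condition. The 3 with the highest FPKM in each family and those below the filter were also named. From other lists, up to 5 genes per comparison at least 2-fold apart with a mean of at least 100 were named. Besides the low-count members given above, Hnrnpc, Hnrnpa2b1, Hnrnph1 and Srsf5 fell outside this rule. Hnrnpu, Hnrnpr and Srsf10 also fell outside it and were described for their seed matches. The searched 3′ UTR was that of the protein-coding transcript with the longest coding sequence, and stretches of 31 bases were compared on both strands. Python 3.11.15, numpy 2.4.6, scipy 1.17.1, pandas 2.3.3 and edgeR 4.0.16 (TMM factors, as an alternative, in R 4.3.3) were used. The scaling and ratios were tested on simulated data.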

Additional observations from a re-analysis of the deposited data

How the results depend on the processing

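The members stayed on the same side of the median gene in each setting run. They lay 0.05 to 0.33 above it after miR-294, 0.16 to 0.30 below it after let-7 and 0.52 to 0.68 below it in Dgcr8-/- over WT cells (log2). Centring and the 2-fold line cannot alter these distances, which were taken against all genes. Among abundant genes, the main setting gave 0.23 above, 0.09 below and 0.36 below. Other scalings moved the median of all genes itself by over 0.1, for example from -0.28 to -0.08 with total counts after miR-294. The counts beyond the line were less stable. After miR-294, 1 lower member remained with TMM factors, total counts, pooled counts, FPKM, cells with 2 runs, centring on the median gene or a 2-fold line, and 1 member was higher with total counts, pooled counts, medians over cells or cells with 2 runs, and 2 with centring. After let-7, 1 member was lower with TMM factors, total counts, pooled counts, FPKM or centring, 3 lower and 2 higher with medians over cells, 10 lower and 4 higher in the cells with 2 runs (7 let-7-transfected cells), and 0 higher with the 2-fold line. In Dgcr8-/- over WT, 1 member was higher with medians over cells, the first run only or cells of at least 1000000 counts, 5 were lower with the 2-fold line, and 16 with centring. Centring set the members' median to 0.32 after miR-294 and -0.64 in Dgcr8-/- over WT, and the summed hnRNP ratio to 0.33 and -0.51. The ratio of Hnrnph3 after miR-294 was 0.26 in cells with 2 runs. The cause of these shifts was not tested, apart from centring, which shifts by construction. Leaving out each cell in turn gave 3 to 5 lower and 0 higher members after miR-294, 0 lower and 1 to 2 higher after let-7, and 6 to 9 lower and 0 higher in Dgcr8-/- over WT, with medians of 0.02 to 0.06, -0.10 to -0.03 and -0.30 to -0.20.

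Srsf4, Srsf6, Srsf9, Srsf11, Hnrnpd and Hnrnpul2 in Dgcr8-/- over WT cells, and Srsf9 after let-7 and Hnrnpll after miR-294 were beyond the line in each alternative of scaling or cell choice, although Srsf6 was not when single cells were left out. The summed SR protein ratio ranged from -0.18 to 0.24 after miR-294, from -0.23 to 0.04 after let-7 and from -0.78 to -0.34 in Dgcr8-/- over WT, and the hnRNP ratio from -0.03 to 0.33, -0.43 to -0.19 and -0.51 to -0.08. Leaving out the 3 miR-294 cells with another title, counting near-identical cells separately and leaving out the 2 cells whose runs did not match changed no count by over 1.5 times. The last 2 of these, the centring and the leaving out of each cell were chosen after seeing the data. No paired analysis was possible because the results come from no test and the run numbers do not pair cells. With 1 circuit per condition, differences between circuits and conditions cannot be told apart, and the only spread against which shifts could be read was the wide one over cells.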
